A study of Sus scrofa with 9 samples.

Results

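The response of pig myoblasts to the human transcription factor DUX4 was described over all pig genes with enough counts, by comparing the 3 libraries with an inducible human DUX4 with the 3 that carried an inducible GFP. These are 6 of the 9 libraries of the study. A filter on low counts over all 9 libraries passed 15956 of the 27339 genes of the table, which were tested. The cells are primary myoblasts of Göttingen minipigs, used at passages 7 to 9, and the other 3 libraries carry pig DUXC. In every group the transgene was switched on with 1 µg/mL doxycycline for 16 h, so DUX4 and GFP cells share the drug, the inducible vector system and the time, and differ in the gene that was induced. Passage is given only as a range for all groups, so the groups may also differ in passage. Such a difference, or another between the transgenic cells, cannot be told apart from the induced gene. Levels are normalised read counts in CPM, the share of a library's reads scaled to a common depth with TMM factors. A gene is said to have risen or fallen where edgeR's quasi-likelihood test, with p-values adjusted by Benjamini-Hochberg over all tested genes, passed 0.05. An SE beside a log2 fold change is the size of that change divided by the square root of the test's F statistic. It can fall below the counting error where a group has few counts.

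DUX4 is a double homeobox transcription factor that acts as an activator in the cleavage-stage human embryo and is normally silent in muscle. Its reappearance in skeletal muscle underlies facioscapulohumeral muscular dystrophy, where it starts an embryonic gene programme and is toxic to the muscle cell. Known effects in human muscle cells include the activation of retroelement-linked and germline genes, changes of RNA metabolism and a block of muscle differentiation. The comparison here asks which kinds of pig genes respond when the human factor is expressed, from transcription factors and signalling inhibitors to surface, secreted and metabolic genes and the programmes that were lowered.

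Total counts ranged from 39842081 to 44420895 in the DUX4 libraries and from 39979602 to 42362395 in the GFP libraries. At this depth a gene with no count in a group has less than 0.0253 CPM with GFP or 0.0243 CPM with DUX4, taking 3 counts over the group as the floor, and floors and counting intervals cover counting error only. Whether the 3 libraries of a group stem from separate cultures is not in the labels, and the p-values measure no more than the variation among these libraries, which could be technical. Expression of the human DUX4 transgene was not analysed here, and group membership was taken from the labels alone. Myoblast and satellite cell markers were scarce, with a median of 0.705 CPM over 15 genes with GFP and 3 of them above 10 CPM, whereas 14 of 15 fibroblast markers were above 10 CPM (median 373 CPM). The labelled cell type was thus only weakly marked. The summed level of the myoblast and satellite cell markers was 173 to 179.9 CPM with GFP and 279.7 to 286 CPM with DUX4, with 5 of 11 tested raised and 3 lowered. Much of this gain lay in MET, a growth factor receptor that went from a mean of 59.3 to 148 CPM. The summed level of the fibroblast markers was 68359 to 72620 CPM with GFP and 40758 to 45611 CPM with DUX4, and that of 12 endothelial markers 85.9 to 89.4 and 129.9 to 138 CPM. Of 8 endothelial markers tested 4 rose and 2 fell, and FLT1 alone went from a mean of 9.65 to 38.2 CPM. Immune (10 genes, 17.1 to 19.9 CPM with GFP and 15.1 to 17.3 with DUX4), adipocyte (9 genes, 2.21 to 2.82 and 5.28 to 5.87 CPM) and epithelial markers (12 genes, 11.6 to 14.4 and 9.94 to 10.4 CPM) were low in both groups, and PTPRC, ADIPOQ, PLIN1, EPCAM and GRHL2 had no count in either. The part of these markers in the results below was not tested. In bulk RNA, fewer cells of a type and less RNA per cell cannot be told apart.

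DUX4 changed the levels of most expressed pig genes, but most of them little. Of the 15956 tested genes 10341 (64.8%) differed from GFP, 5248 (32.9%) higher and 5093 (31.9%) lower, and the median log2 fold change was 0.00. The median and the even split depend on the TMM scaling, which centres most genes near 0. With DESeq2 size factors 5571 genes were higher and 4742 lower. The larger changes leaned upwards: 1668 genes (10.5%) rose at least 2-fold and 840 (5.26%) fell at least 2-fold, and at 8-fold the numbers were 474 and 76. Counted only over genes of at least 1 CPM in either group, 997 rose and 603 fell at least 2-fold, and the changed genes as a whole were 4478 higher and 4753 lower. Of the genes that passed, 6258 (60.5%) moved by less than 1.5-fold. A test against a 1.5-fold change, in place of any change, left 1823 genes higher (11.4%) and 1083 lower (6.79%). For 10696 tested genes (67.0%) the 3 DUX4 libraries did not overlap the 3 GFP libraries. Counts given below for a gene list are to be read beside the 32.9% higher and 31.9% lower of all tested genes. Counts at 2-fold are to be read beside 10.5% and 5.26%.

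**Figure D1:**
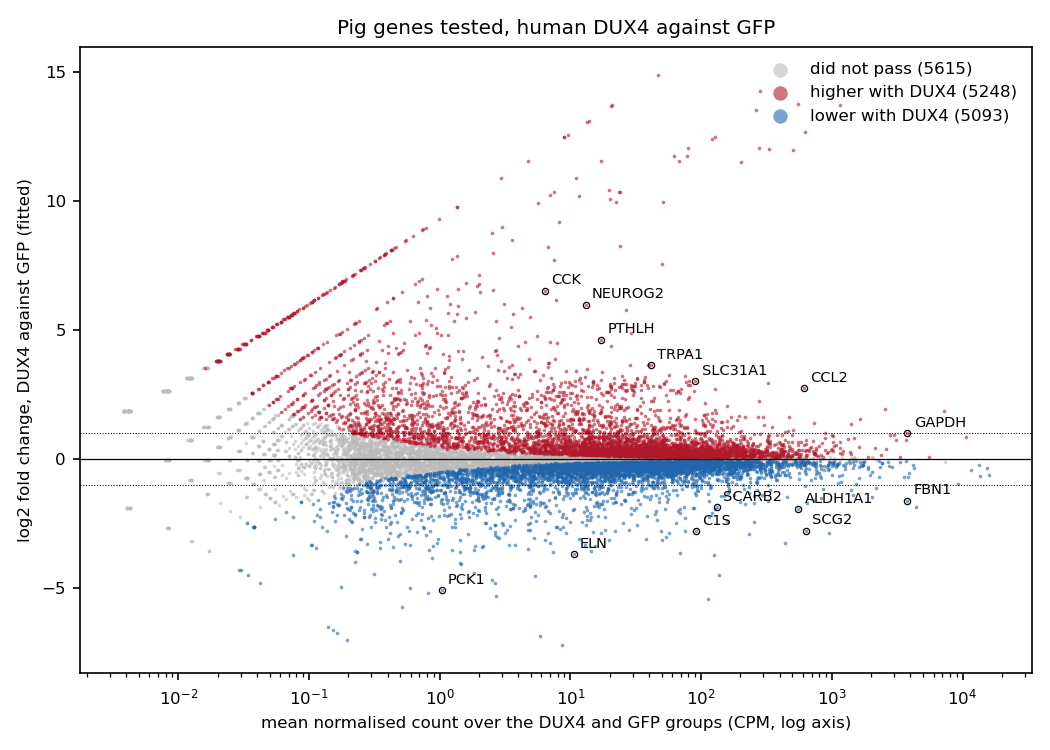
Fitted log2 fold change of DUX4 against GFP (vertical axis) for 15956 tested genes by mean level over both groups (horizontal axis, CPM, log scale) with some named genes circled. Dotted lines mark 2-fold. The 5248 genes that rose reach far larger fold changes than the 5093 that fell, above all among genes scarce with GFP. The straight lines of points at low level are genes with 0 or few counts with GFP, whose fitted fold depends on the prior count.

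The share of strongly raised genes was highest among scarce genes. At least 2-fold rises were found for 22.7% of tested genes with under 0.1 CPM, 22.4% of those with 0.1 to 1 CPM, 13% with 1 to 10 CPM, 5.20% with 10 to 100 CPM and 3.49% with 100 to 1000 CPM, with the level taken as the mean of the 6 libraries, and for 5.22% of the genes above 1000 CPM. Genes of the lowest class could often pass the filter only through a group where they were higher, so their share is set in part by the filter. That group could also be DUXC: GRHL2 was tested with no count with GFP or DUX4 and 0.589 CPM with DUXC. As a share of counts, the 1668 genes raised at least 2-fold took 1.93%, 1.91% and 1.94% in the GFP libraries and 7.01%, 7.04% and 7.08% in the DUX4 libraries. The 840 genes lowered at least 2-fold went from 5.19%, 5.21% and 5.14% to 1.71%, 1.71% and 1.8%. Both directions follow from how the genes were chosen, so only the size of the shares is informative.

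Part of the added RNA came from loci that were all but silent with GFP and carry no gene name. Of 76 genes with at least 1 CPM with DUX4 and a fitted log2 fold change of 6 or more, 52 were listed under a LOC identifier in place of a gene symbol. These 52 summed to 3.92, 1.41 and 0.77 CPM in the GFP libraries and to 9425, 10315 and 10552 CPM in the DUX4 libraries, against 1.30, 1.59 and 1.21 and then 421, 415 and 426 CPM for the 24 with a name of their own. The first GFP library thus held more of these reads than the other two, and no GFP library came near a DUX4 library. Of the 76, 32 lay in 6 runs of 3 or more with gaps of at most 250 kb (Sscrofa11.1). The largest runs were 8 genes on chromosome 6 from 72732006 to 72892480, summing to 0.916 CPM with GFP and 4075 CPM with DUX4, and 6 genes on chromosome 9 from 22965206 to 23069983, with 0.316 and 3609 CPM. Neighbouring genes of such runs may be near-identical copies, between which the authors' counting could split or lose reads, so the sums are safer than the single values. The genes and runs of this paragraph were chosen after their values were seen. Among the genes named in what follows, the counts of 1 stretch of DNA may also be shared between overlapping genes on either strand, since the strand setting of the counting is not given: this touches ANGPT2, ASPN, BOC, CACNA1D, CHRD and THPO (which overlap each other), CP, FGF2, GAPDH, GLI1, HSD11B1, IGF1R, ISM1, MASP1, PC, PDK2, PFKFB2, PGAM2, PIEZO1, SCUBE1 and SOCS5, each of which overlaps another gene with a symbol of its own and is uncertain to that extent. Some others, such as SOX5 and SLIT3, overlap only microRNA, tRNA or LOC genes.

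Among transcription factors outside the early embryonic set, several lineage regulators that were scarce with GFP rose with DUX4. NEUROG2, a basic helix-loop-helix factor that drives neuronal fate (chromosome 8, 110200681 to 110206081), had 0.269, 0.437 and 0.513 CPM in the GFP libraries and 25.4, 26.8 and 24.9 CPM in the DUX4 libraries, a log2 fold change of 5.98 (edgeR adjusted p = 1.5e-35). Each DUX4 library was far above each GFP library, and the 3 DUX4 values lay close together. Others that rose from low levels were HAND1, a factor of heart and extraembryonic tissue, from a mean of 0.616 to 9.09 CPM, KLF5, a Krüppel-like factor of epithelia and early embryos, from 0.952 to 12.6 CPM, and the T-box factor EOMES from 0.0420 to 2.72 CPM. The nuclear receptor RORB reached 1.57 CPM from 0.0762, and TFAP2C, an AP-2 factor of trophoblast and germ cells, 1.6 CPM from 0.0762. FOXM1, a forkhead factor of dividing cells, went from 1.98, 1.54 and 2.16 to 12.9, 13.6 and 12.8 CPM (log2 2.79).

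The SOX family, high-mobility-group factors of cell fate, moved mostly up. Of 20 listed members 10 were tested, of which 7 rose (70%) and 2 fell (20%), against 32.9% and 31.9% of all tested genes. The median log2 fold change was 0.92, or 0.69 over members of at least 1 CPM. SOX9, the cartilage factor, stood at 24.2, 24.3 and 26.2 CPM with GFP and 48.7, 53.0 and 44.1 CPM with DUX4 (log2 0.97), and SOX5 went from 8.30 to 18.8 CPM. SOX6, which pairs with SOX5 in cartilage and muscle, went the other way, from 11.9, 12.3 and 12 to 3.52, 3.35 and 3.69 CPM (log2 -1.78, edgeR adjusted p = 5.7e-24), and SOX4 fell by 0.20 on the log2 scale. The 2 groups of libraries did not overlap for any of these 4 genes. No overlap was a condition for naming members of a list, and 67.0% of all tested genes met it.

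Factors that fell included Krüppel-like factors, orphan nuclear receptors and a mesenchymal homeobox factor. KLF15, a glucocorticoid-induced metabolic factor, fell from 5.04, 5.44 and 5.34 to 0.812, 1.03 and 0.795 CPM (log2 -2.57), and KLF9 from 11.5 to 4.74 CPM. The orphan nuclear receptor NR4A3 fell from 13.1 to 4.53 CPM, and its relative NR4A2 from 69.1 to 35.4 CPM. PRRX1, a mesenchymal homeobox factor and the most abundant factor in this paragraph, fell from 2011, 2028 and 2004 to 1219, 1189 and 1226 CPM (log2 -0.73). As families, the nuclear receptors (13 of 38 tested raised, 12 lowered), forkhead factors (7 and 7 of 23), KLF and SP factors (8 and 8 of 23) and 77 other homeobox factors (27 and 25) split about evenly, close to the 32.9% and 31.9% of all genes.

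Genes that restrain growth factor signalling rose together. Of 18 tested MAP kinase phosphatases and Sprouty or SPRED inhibitors, feedback brakes of the RAS and MAP kinase pathway, 14 rose and 2 fell (median log2 0.77). SPRY1 went from 5.34, 6.45 and 5.47 CPM to 17.2, 17.0 and 17.9 CPM (log2 1.6, SE 0.069). DUSP4, a nuclear phosphatase of ERK, went from 32.8, 29.7 and 32.0 to 73.2, 70.3 and 71.3 CPM (log2 1.18), and SPRED1 from 94.9 to 173 CPM. All DUX4 libraries were above all GFP libraries for these 3 genes, as the naming rule required. The 2 that fell were DUSP6, a cytoplasmic ERK phosphatase, from 32.3, 32.5 and 32.0 to 19, 18.7 and 20.3 CPM (log2 -0.74), and DUSP1 from 130.4 to 93.6 CPM (log2 -0.48).

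RGS proteins shut off G protein signals by speeding GTP hydrolysis, and 8 of 16 tested rose while RGS22 alone of these 16 fell (median log2 0.33). RGS4 rose most among those above 10 CPM, from 2.10, 1.41 and 2.00 to 37.3, 41.2 and 37.9 CPM (log2 4.39). RGS16 had 1 count over the GFP libraries and 158 over the DUX4 libraries, a ratio of 152 with a 95% counting interval of 26.9 to 6051. Suppressors of cytokine signalling changed in both directions. SOCS1 rose from 0.684 to 2.69 CPM, SOCS2 from 3.65 to 9.23 CPM and SOCS3 from 22.3 to 38.1 CPM, while SOCS5 fell from 71.9 to 46.1 CPM and CISH from 1.07 to 0.505 CPM.

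**Figure D2:**
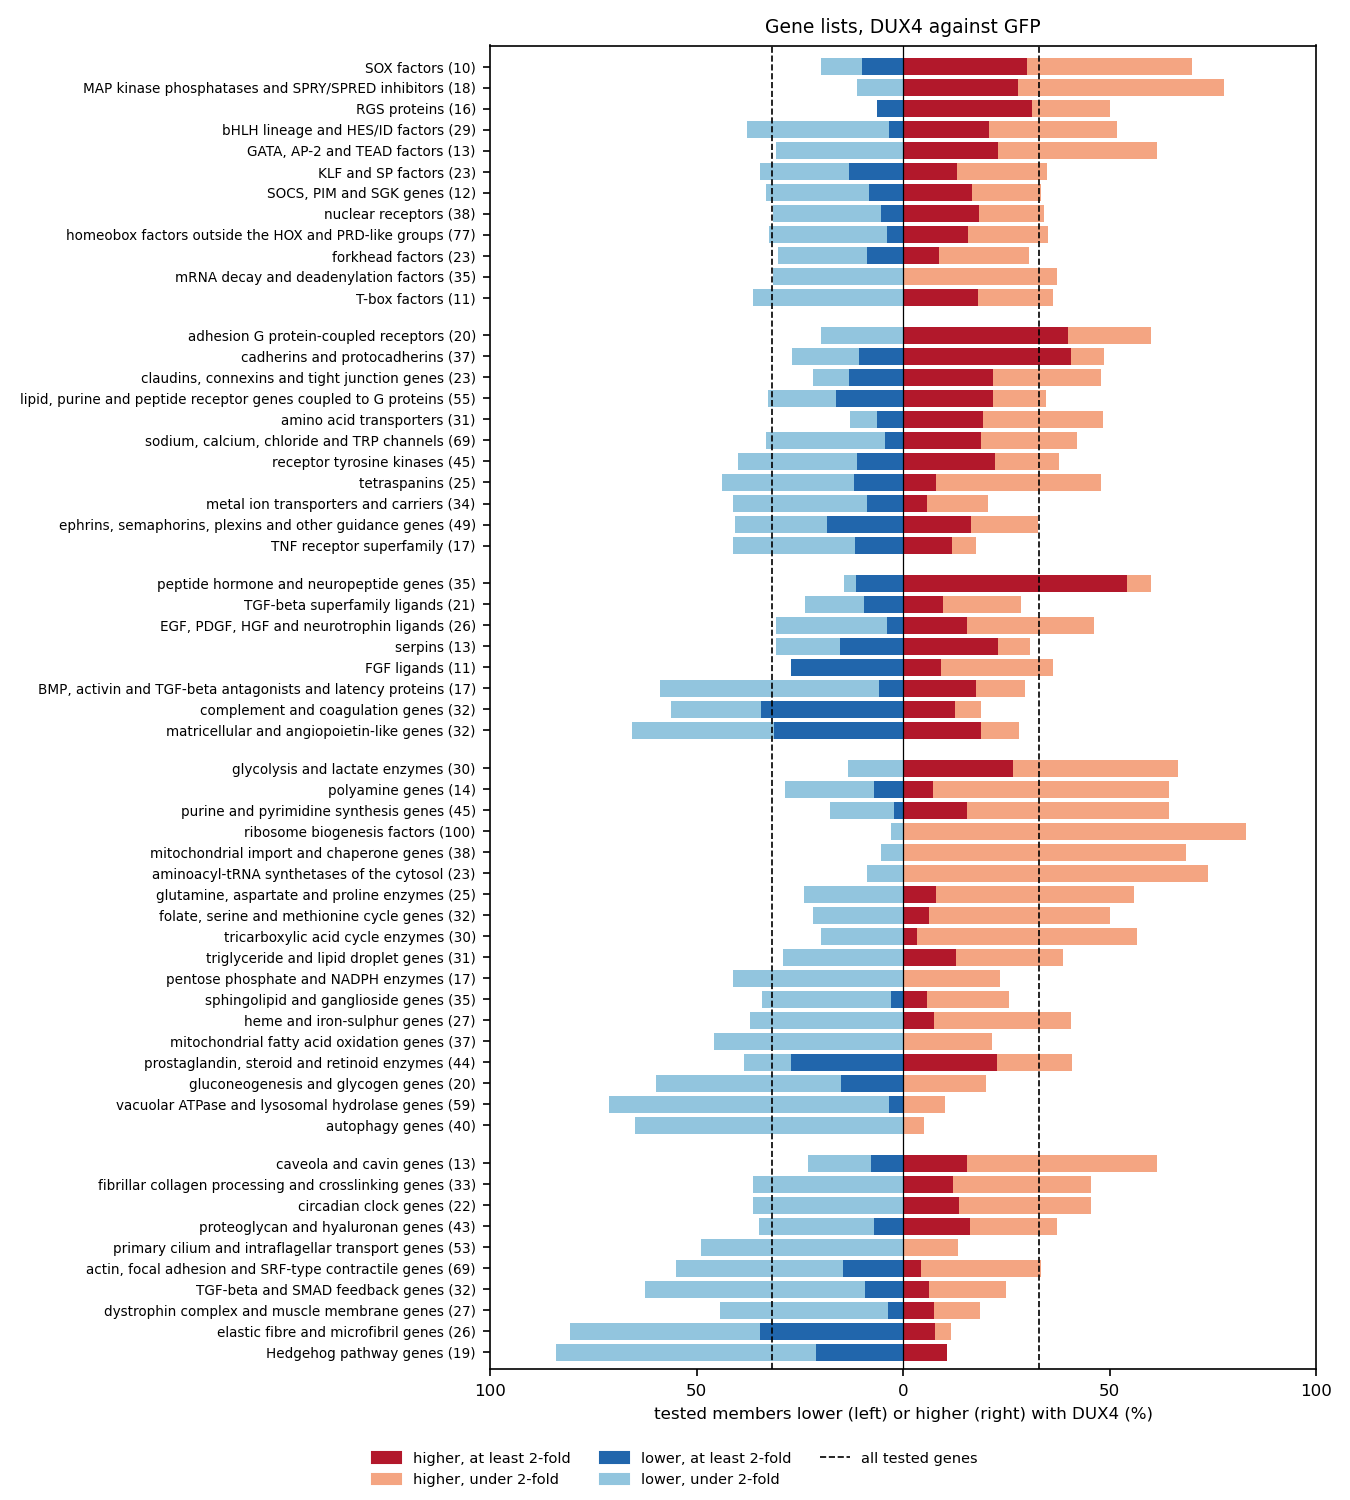
Share of the tested members of gene lists (number tested in brackets) that were higher (right) or lower (left) with DUX4, with dark colour for at least 2-fold; blocks from top are effectors, surface, secreted, metabolism and programmes, and dashed lines mark the 32.9% and 31.9% of all tested genes. Ribosome biogenesis (83 of 100 higher), MAP kinase inhibitors (14 of 18) and tRNA synthetases (17 of 23) reach furthest right, and Hedgehog (16 of 19 lower), elastic fibre (21 of 26) and lysosomal genes (42 of 59) furthest left.

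At the cell surface, guidance and adhesion genes changed in both directions. SEMA7A, a membrane-anchored semaphorin that binds integrins (chromosome 7, 59094919 to 59119534), was at 8.59, 7.45 and 7.34 CPM in the GFP libraries and 61.5, 69.4 and 65.7 CPM in the DUX4 libraries (log2 3.07, SE 0.060, edgeR adjusted p = 2.1e-39). Its groups lay far apart. Over 49 tested ephrins, semaphorins, plexins and other guidance genes 16 rose (32.7%) and 20 fell (40.8%). The shares of all tested genes were 32.9% and 31.9%. NRP1, a coreceptor of semaphorins and VEGF, rose from 27.1 to 60.0 CPM, while its relative NRP2 fell from 93.2 to 46.4 CPM, and the ligand SLIT3 fell from 6.07, 5.55 and 6.03 to 1.13, 0.872 and 0.872 CPM (log2 -2.62).

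Among 45 tested receptor tyrosine kinases 17 rose (37.8%) and 18 fell (40%), against 32.9% and 31.9% of all tested genes. MET, the receptor of hepatocyte growth factor, rose from 60.8, 59.7 and 57.3 to 153, 149 and 143 CPM (log2 1.32), and its ligand gene HGF from 10.1, 11.6 and 11 to 48.2, 42.1 and 42.5 CPM (log2 2.02). FLT1, a VEGF receptor, rose from 9.65 to 38.2 CPM and AXL from 296 to 448 CPM. Among those that fell were receptors of mesenchymal growth factors. PDGFRA fell from 376, 367 and 377 to 171, 149 and 169 CPM (log2 -1.20), PDGFRB from 247 to 148 CPM and IGF1R from 118 to 67.9 CPM. EPHA7, an ephrin receptor of the nervous system, had 2 counts over the GFP libraries and 236 over the DUX4 libraries, a ratio of 114 (95% counting interval 31.1 to 944).

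Cadherins changed in both directions. Of 37 tested, 18 rose, 15 of them at least 2-fold, and 10 fell (median log2 0.69, or 0.16 over members of at least 1 CPM). Protocadherins, homophilic adhesion molecules best known from neurons, rose in 7 of 9 cases and fell in 1, with a median of 1.72, and the FAT, DCHS and CLSTN genes fell in 5 of 7 with none raised (median -0.72). These subgroups, like the complement, coagulation, cathepsin, proton pump, microfibril and retinoid ones below, were formed after the values were seen. The 9 protocadherins together went from 228 to 435 CPM, and much of that gain was PCDH17. PCDH17 rose from 101, 104 and 102 to 236, 238 and 234 CPM (log2 1.20) and the desmosomal cadherin DSC2 from 20.4, 20.0 and 19.6 to 61.2, 57.1 and 58.3 CPM (log2 1.56). CDH13, a cadherin anchored by a lipid, fell from 117, 112 and 119 to 30.9, 31.7 and 33.4 CPM (log2 -1.86, edgeR adjusted p = 1.3e-38), and FAT4, a regulator of planar polarity, from 94.2 to 35.6 CPM. Libraries of the 2 groups did not overlap for these 4 genes, which the naming rule required.

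Junction and membrane organiser genes also moved in both directions. Of 23 tested claudin, connexin and tight junction genes 11 rose and 5 fell. The claudins CLDN1 and CLDN6 rose from 7.47 to 23.0 and from 3.60 to 12.3 CPM, while CLDN4 fell from 4.80 to 2.11 CPM and CLDN7 fell by 0.63 on the log2 scale. GJA1, a connexin and the most abundant gene of the junction list, fell from 1984, 1976 and 1921 to 838, 835 and 885 CPM (log2 -1.20). The tetraspanin CD9, which organises integrins at the membrane and takes part in myoblast fusion, fell from 136, 137 and 136 to 38.1, 35.8 and 35.0 CPM (log2 -1.91, SE 0.039), while TSPAN12 rose from 50.2 to 87.7 CPM. Over all 25 tested tetraspanins 12 rose (48%) and 11 fell (44%), against 32.9% and 31.9% of all tested genes.

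Receptors coupled to G proteins leaned upwards among adhesion types. Of 20 tested adhesion receptors 12 rose (60%), 8 at least 2-fold (40%), and 4 fell (20%). Their median log2 fold change was 0.73, or 0.50 over members of at least 1 CPM. ADGRG6, a receptor needed for Schwann cell myelination, went from 7.34, 7.68 and 7.42 to 28.8, 25.9 and 24.8 CPM (log2 1.83). Of 55 tested lipid, purine and peptide receptor genes 19 rose (34.5%) and 18 fell (32.7%), close to the 32.9% and 31.9% of all tested genes. CALCRL, the receptor of adrenomedullin and calcitonin gene-related peptide, rose from 3.84, 3.18 and 3.36 to 25.6, 26.8 and 26.0 CPM (log2 2.91), and CXCR4, a chemokine receptor of satellite cells, from 0.185 to 1.97 CPM. EDNRA, an endothelin receptor of contractile mesenchyme, fell from 33.9, 32.0 and 31.4 to 9.76, 9.48 and 10.6 CPM (log2 -1.71), and the serotonin receptor HTR2A from 32.0 to 13 CPM.

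Channels and carriers held some of the clearest single changes. TRPA1, a cation channel of pain neurons opened by irritants (chromosome 4, 63493374 to 63558486), stood at 6.27, 5.60 and 6.62 CPM with GFP and 82.0, 74.9 and 73.0 CPM with DUX4 (log2 3.64, SE 0.060, edgeR adjusted p = 9.2e-43). The voltage-gated calcium channel gene CACNA1D rose from 4.49 to 16.2 CPM while CACNA1C fell from 39.4 to 17.5 CPM. Likewise the mechanically gated channel PIEZO1 rose from 68.6 to 98.3 CPM and PIEZO2 fell from 32.0, 31.6 and 31.8 to 10.6, 10.7 and 11.9 CPM (log2 -1.53). Of 31 tested amino acid transporters 15 rose and 4 fell. The taurine carrier SLC6A6 rose from 3.82 to 16.3 CPM, the large neutral amino acid carrier SLC7A5 from 220.0 to 308 CPM, while SLC43A2, also a carrier of neutral amino acids, fell from 42.1, 41.6 and 45.5 to 7.21, 7.96 and 7.85 CPM (log2 -2.49).

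Metal handling shifted at a few genes rather than across the list, in which 7 of 34 tested rose and 14 fell. SLC31A1, the copper importer (chromosome 1, 253868389 to 253893135), went from 19, 20.3 and 20.7 to 153, 164 and 167 CPM (log2 3.01, SE 0.040, edgeR adjusted p = 4.0e-44). MT-2B, a metallothionein that binds zinc and copper, rose from 0.171, 0.282 and 0.180 to 16.9, 14.6 and 14.7 CPM (log2 6.17), and the zinc exporter SLC30A1 from 23.4 to 42.4 CPM. CP, the copper-carrying ferroxidase ceruloplasmin, fell from 30.4, 34.5 and 31.3 to 4.67, 4.61 and 4.95 CPM (log2 -2.76). Both the iron exporter SLC40A1 and the endosomal iron reductase STEAP3 fell, from 155 to 76.6 CPM and from 28.4 to 7.43 CPM. The transferrin receptor TFRC rose by 0.27 on the log2 scale, and the heme-degrading enzyme HMOX1 rose from 769, 798 and 799 to 2108, 2066 and 1902 CPM (log2 1.36).

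**Figure D3:**
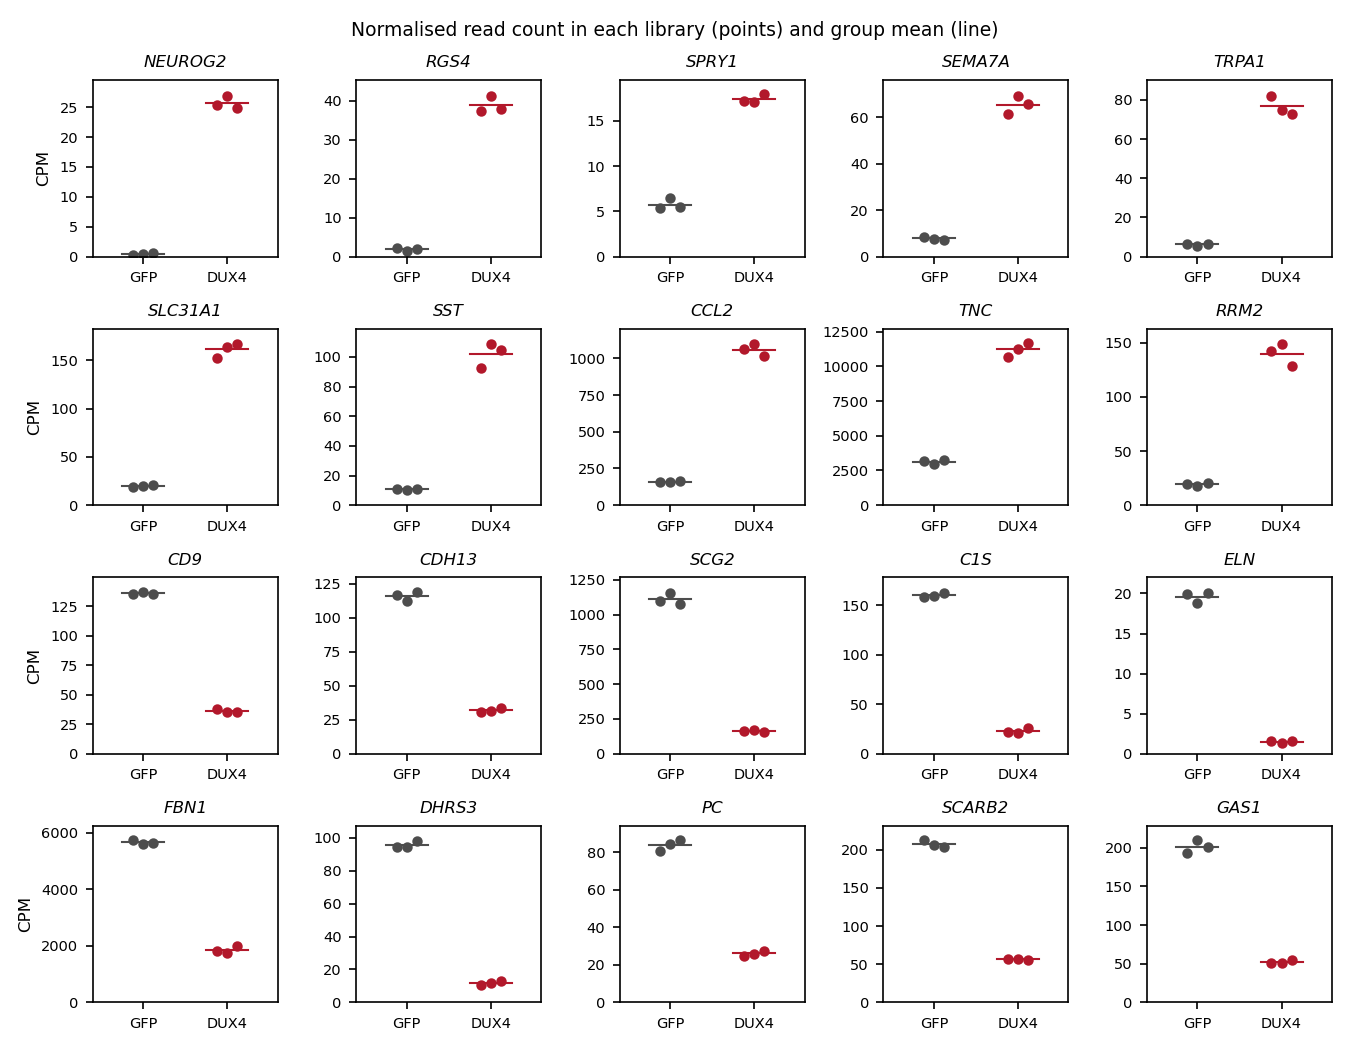
Normalised read count (CPM, linear axes from 0) in each of the 3 GFP and 3 DUX4 libraries for 20 genes named in the text, with the group mean as a line. In every panel the 3 DUX4 libraries lie on one side of the 3 GFP libraries, and the distance between groups exceeds the spread within them. No overlap between the groups was a condition for naming these genes.

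Among secreted products, the genes for signalling peptides had the highest share of raised members of the 8 secreted lists. Of 35 tested peptide hormone and neuropeptide genes 21 rose, 19 of them at least 2-fold, and 5 fell. Their median log2 fold change was 1.52, or 1.34 with the genes lacking counts with GFP set to their bound. Many of these genes were near the floor with GFP, where they could pass the filter only through the DUX4 or the DUXC libraries. SST, the inhibitory peptide somatostatin (chromosome 13, 125337560 to 125338742), was already measurable and went from 10.7, 10.4 and 11.11 to 92.7, 108 and 105 CPM (log2 3.25, SE 0.058). PTHLH, a parathyroid hormone-like regulator of calcium and cartilage, went from 1.10, 1.39 and 1.51 to 31.7, 34.3 and 33.0 CPM (log2 4.63), and the gut and brain peptide CCK from 0.135 to 12.7 CPM. The appetite peptide NPY, already abundant, rose from 98.7, 93.4 and 99.3 to 277, 299 and 259 CPM (log2 1.52).

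The peptide genes that fell were SCG2, THPO, VIP, AGT and PENK, of which PENK fell by only 0.26 on the log2 scale and lost its call in some other analyses of the same counts. SCG2, a granin of secretory vesicles and the most abundant of the list with GFP, fell from 1100.3, 1157 and 1076 to 160.2, 168 and 158 CPM (log2 -2.78, SE 0.033, edgeR adjusted p = 1.6e-48), whereas CHGB, another granin, rose from 0.971 to 12.7 CPM. Because of SCG2 the summed level of the list went down, from 1438 to 986 CPM, although most of its members rose. The angiotensin precursor AGT fell from 24.7 to 10.2 CPM and THPO, thrombopoietin, from 7.74 to 2.14 CPM.

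Growth factors and their antagonists changed gene by gene. FGF2, the most abundant tested fibroblast growth factor, fell from 1068, 1119 and 1014 to 368, 329.6 and 372 CPM (log2 -1.58), and FGF19, an endocrine relative, rose from 8.13, 7.04 and 7.55 to 25, 27.2 and 25.7 CPM (log2 1.78). HBEGF, a ligand of the EGF receptor, rose from 19.3, 19.4 and 20.2 to 70.1, 77.5 and 69.9 CPM (log2 1.89). Of 17 tested antagonists and latency proteins of BMP, activin and TGF-beta, 5 rose and 10 fell. GREM1 rose from 14.1, 13.4 and 13.3 to 50.5, 52.2 and 50.4 CPM (log2 1.91) and NOG from 2.42 to 7.50 CPM, while CHRD fell from 72.8, 73.3 and 72.2 to 21.3, 23.3 and 23.6 CPM (log2 -1.68). INHBB, a subunit of activin and inhibin, fell from 5.73, 6.78 and 6.08 to 0.590, 0.734 and 0.487 CPM (log2 -3.34).

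Some abundant secreted proteins rose and were among the genes with the largest gain in CPM. TNC, the matrix protein tenascin C of healing and embryonic tissue, went from 3160.3, 2996 and 3239.8 CPM to 10718, 11275 and 11690.0 CPM (log2 1.84, SE 0.032). The monocyte chemokine CCL2 went from 159, 157 and 161 to 1064, 1098 and 1015 CPM (log2 2.74). The 15 genes with the largest gain in CPM, which also include VIM, GAPDH, ENO1, PKM and LDHA, held 2.88%, 2.83% and 2.92% of counts in the GFP libraries and 5.93%, 6.23% and 6.12% in the DUX4 libraries. At lower levels ANGPT2, a vessel-destabilising ligand, rose from 4.21 to 52.7 CPM, SPP1, osteopontin, from 2.46 to 21.4 CPM and SERPINB2 from 0.363 to 7.52 CPM.

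The matricellular list as a whole mostly fell: 21 of 32 tested were lower and 9 higher, with a median log2 fold change of -0.45. THBS1 was its most abundant member at 17295, 17384 and 17247 CPM with GFP and 13585, 13134 and 13985 CPM with DUX4 (log2 -0.35), while THBS2 fell from 670.1 to 239.8 CPM and THBS4 from 8.55 to 1.28 CPM. SMOC2, a calcium-binding matrix protein, fell from 3.30, 3.36 and 3.80 to 0.0492, 0.321 and 0.103 CPM (log2 -4.40). The summed level of the list still rose from 28434 to 31099 CPM, as TNC alone gained more than that.

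Most complement genes fell. Of 15 tested complement components and proteases 11 fell, 10 of them at least 2-fold, and the median log2 fold change was -1.12. The 14 coagulation and fibrinolysis genes had 5 higher and 5 lower, near the 32.9% and 31.9% of all tested genes. C1S, a protease of the first complement complex (chromosome 5, 63670309 to 63681466), was at 159, 159.8 and 163 CPM with GFP and 22.1, 21.2 and 25.6 CPM with DUX4 (log2 -2.81, SE 0.043, edgeR adjusted p = 3.8e-40). Its partner C1R fell from 124, 124 and 130.2 to 22.9, 25.3 and 29.0 CPM and the lectin-pathway protease MASP1 from 64.1, 62.5 and 62.6 to 13.8, 13 and 14.6 CPM. SERPING1, the inhibitor of these same proteases, fell in parallel, from 132, 124 and 136 to 18.1, 18.3 and 20.3 CPM (log2 -2.79). The downstream components C2 and C3 fell as well, C2 from 26.9 to 5.75 CPM and C3 from 27.2 to 15.4 CPM. Of the anticoagulants, TFPI rose from 1.88 to 7.42 CPM and THBD from 0.168 to 1.24 CPM, while the more abundant PROS1 fell from 213 to 111 CPM.

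In metabolism, genes of glycolysis rose along most of the pathway. Of 30 tested glycolysis and lactate genes 20 rose and 4 fell (median log2 0.59), and their summed level was 13987, 13613 and 14184 CPM with GFP and 23756, 25090 and 24937 CPM with DUX4. GAPDH rose from 2546, 2416 and 2604 to 4833, 5178 and 5152 CPM (log2 1.00), LDHA, which makes lactate, rose from 1967, 1914 and 1906 to 3662, 3674 and 3657 CPM (log2 0.93) and hexokinase HK2 from 63.6, 60.9 and 59.9 to 149.9, 150.2 and 154 CPM (log2 1.30). The 4 that fell, ENO3, PGAM2, HK3 and PFKFB2, include the muscle forms of enolase and phosphoglycerate mutase. The lactate exporter SLC16A3 rose from 76.7 to 207 CPM.

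Of 20 tested gluconeogenesis and glycogen genes 4 rose and 12 fell (median log2 -0.14). PC, pyruvate carboxylase, fell from 80.6, 84.6 and 86.6 to 24.9, 26.1 and 27.4 CPM (log2 -1.68), and PCK1, the cytosolic carboxykinase, from 2.06, 1.85 and 2.13 to 0.0492, 0.0688 and 0.0513 CPM (log2 -5.07). PCK2, the mitochondrial form, rose from 90.4, 84.9 and 96.3 to 162, 180.2 and 169.8 CPM (log2 0.91). Enzymes of the tricarboxylic acid cycle rose in 17 of 30 cases and fell in 6, mostly by small amounts (median 0.10), with the pyruvate dehydrogenase kinase PDK1 going from 100.1 to 189 CPM and PDK2 from 9.29 to 4.73 CPM. Mitochondrial fatty acid oxidation had 8 genes higher (21.6%) and 17 lower (45.9%) of 37, none by 2-fold. The shares of all tested genes were 32.9% and 31.9%.

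Genes of nucleotide synthesis mostly rose. Of 45 tested purine and pyrimidine synthesis genes 29 rose and 8 fell (median log2 0.25). RRM2, the ribonucleotide reductase subunit of dividing cells, went from 19.9, 17.9 and 20.1 to 142, 149 and 128 CPM (log2 2.86), thymidine kinase TK1 from 6.09, 5.96 and 6.47 to 33.1, 36.2 and 34.0 CPM (log2 2.48), and RRM2B, the form used outside division, fell from 47.6 to 30.6 CPM. Polyamine genes rose in 9 of 14 cases and fell in 4. The synthetic enzyme ODC1 rose from 137 to 233 CPM and SAT1, which starts polyamine breakdown, from 34.1, 33.7 and 32.8 to 94.1, 99.3 and 98.8 CPM (log2 1.54). Folate, serine and methionine genes rose in 16 of 32 cases and fell in 7. SDS, which degrades serine, rose from 1.10, 0.642 and 1.08 to 50.4, 52.9 and 53.5 CPM (log2 5.79).

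Several genes of fatty acid uptake and binding rose. CD36, a fatty acid receptor, rose from 3.79, 3.80 and 3.59 to 21.9, 19.6 and 19.3 CPM (log2 2.44), FABP3, the heart and muscle fatty acid binding protein, from 2.31 to 13.9 CPM and FABP5 from 10.9 to 29.1 CPM. The lipid droplet coat gene PLIN2 rose from 75 to 137 CPM. In the whole list of 31 triglyceride and lipid droplet genes 12 rose and 9 fell, close to the shares of all genes.

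Retinoid genes changed in both directions and by large amounts. Of 15 tested genes of retinoid synthesis, binding and uptake 6 rose and 9 fell, 6 and 7 of them at least 2-fold. ALDH1A1 and ALDH1A3, which oxidise retinaldehyde to retinoic acid, fell from 875, 898 and 865 to 244, 223 and 226 CPM (log2 -1.93) and from 1250.4, 1214 and 1217 to 411, 439 and 447 CPM (log2 -1.51). DHRS3, which turns retinaldehyde back to retinol, fell from 94.7, 94.4 and 97.8 to 10.5, 12 and 13.3 CPM (log2 -3.0, SE 0.049). CYP26A1, which degrades retinoic acid, rose from 0.0979, 0.0770 and 0.0257 to 1.70, 2.13 and 2.10 CPM (log2 4.81), and CRABP2, its carrier in the cell, from 7.95, 8.60 and 8.78 to 34.8, 42.1 and 34.7 CPM (log2 2.14). The receptor RARB, itself a target of retinoic acid, fell from 18.6 to 11.4 CPM. In steroid metabolism HSD11B1, which makes active glucocorticoid, fell from 5.31, 5.03 and 4.93 to 0.123, 0.298 and 0.103 CPM (log2 -4.81).

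The machinery that makes ribosomes rose slightly but nearly throughout. Of 100 tested ribosome biogenesis factors 83 rose, 3 fell and none changed 2-fold, with a median log2 fold change of 0.21. Their summed level was 7044, 7068 and 7043 CPM with GFP and 8521, 8554 and 8394 CPM with DUX4, so the groups did not overlap and the rise of the sum was small beside that of glycolysis. FBL, the methyltransferase of ribosomal RNA, went from 69.6, 69.2 and 71.7 to 105, 112 and 107 CPM (log2 0.62) and NPM1, nucleophosmin, from 866 to 1226 CPM. Cytosolic tRNA synthetases (17 of 23 higher, 2 lower, median 0.16) and mitochondrial import and chaperone genes (26 of 38 higher, 2 lower, median 0.19) showed the same small shift, again with no 2-fold change.

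Lysosomal and autophagy genes were shifted down by similar small amounts. Of 59 tested lysosomal genes 42 fell and 6 rose (median log2 -0.19), and of 40 autophagy genes 26 fell and 2, ATG16L2 and ATG101, rose (median -0.22), the calls of those 2 being lost without some single libraries. Proton pump subunits moved least, with 9 of 16 lower, 3 higher and a median of -0.11, and 8 of 11 cathepsins were lower with CTSO alone higher. SCARB2, a membrane protein that brings glucocerebrosidase to the lysosome, stood out with 213, 206 and 203 CPM with GFP and 57.2, 56.5 and 55.7 CPM with DUX4 (log2 -1.88, SE 0.033). The protease CTSL fell from 23.5, 24.9 and 23.9 to 9.47, 9.80 and 9.54 CPM (log2 -1.33) and TPP1, mutated in a childhood lysosomal disease, from 102 to 56.3 CPM. TP53INP1, a stress-linked autophagy protein, fell from 78.1 to 41.8 CPM, and the cargo receptors OPTN and TAX1BP1 from 225 to 153 and from 457 to 309.6 CPM.

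**Figure D4:**
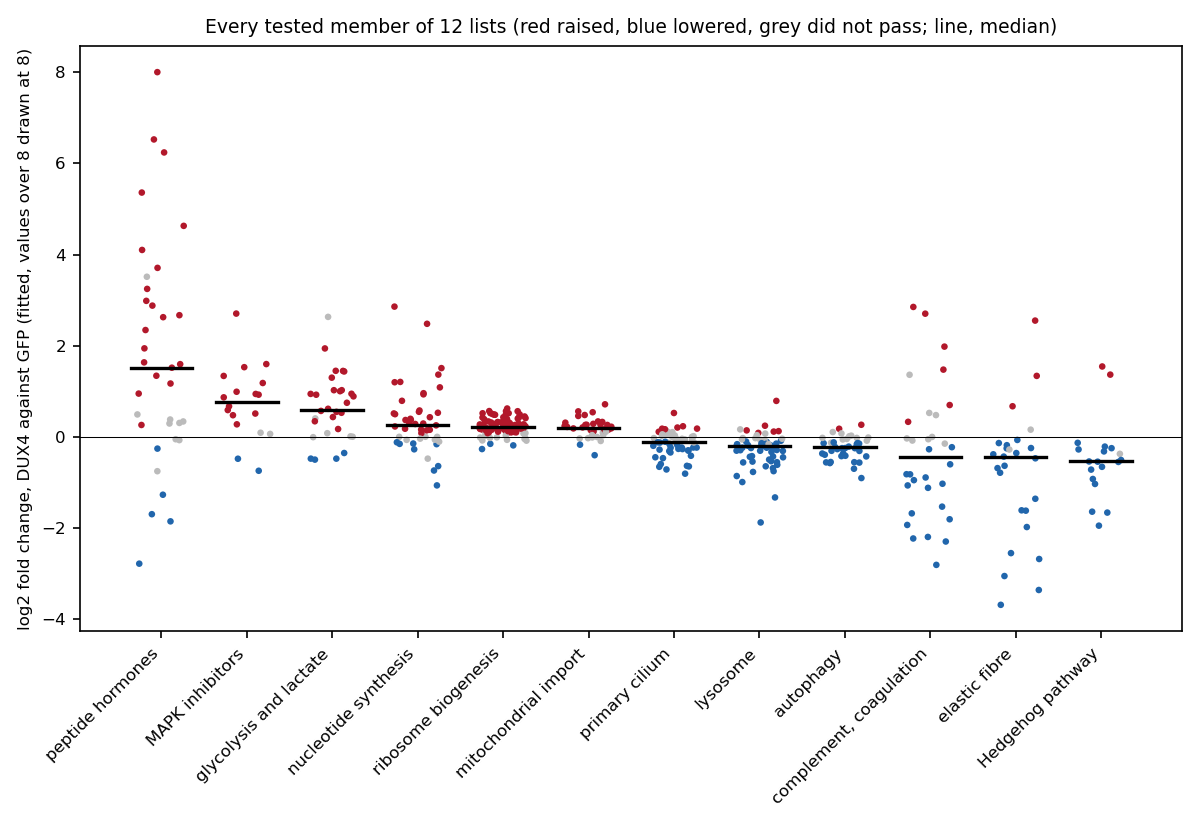
Fitted log2 fold change of DUX4 against GFP (vertical axis) for every tested member of 12 lists, ordered by median (black line), red for genes that rose, blue for genes that fell and grey for those that did not pass. Ribosome biogenesis and autophagy form tight bands at 0.21 and -0.22, while peptide hormones, complement and elastic fibre genes spread over several log2 units.

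Of the lowered programmes, the elastic fibre was among those with the highest share of members down. Elastic fibres consist of elastin on a scaffold of fibrillin microfibrils and give tissue its recoil. Of 26 tested genes 21 fell, 9 at least 2-fold, and 3 rose (median log2 -0.45), and the summed level went from 9861, 9734 and 9917 CPM to 4927, 4968 and 5267 CPM. FBN1, fibrillin 1, fell from 5749, 5613 and 5652 to 1828, 1739.9 and 2008 CPM (log2 -1.61), and ELN, elastin (chromosome 3, 11214194 to 11245891), from 20.0, 18.8 and 20.0 to 1.62, 1.4 and 1.56 CPM (log2 -3.68). The groups were far apart for both genes. The microfibril protein MFAP5 fell from 29.7, 27.8 and 27.0 to 2.58, 2.98 and 2.67 CPM (log2 -3.36), and of 14 fibulins, EMILINs and microfibril-associated genes 13 fell and none rose. The fibroblast markers, a list that also holds FBN1, moved with this list, 11 of 14 tested lower and 3 higher, and their part in the result was not tested. The 3 elastic fibre genes that rose were FBN2, the fibrillin of embryonic tissue, from 0.430 to 2.54 CPM, ADAMTSL4 from 65.9 to 167 CPM and ADAMTSL1 from 38.7 to 61.8 CPM.

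Of 43 tested sugar-rich matrix genes 16 rose (37.2%) and 15 fell (34.9%), close to the 32.9% and 31.9% of all tested genes. SULF1, which trims heparan sulfate and so tunes growth factor binding, fell from 35.7, 35.4 and 35.5 to 3.71, 3.85 and 4.41 CPM (log2 -3.16). CD44, the hyaluronan receptor, rose from 297 to 628 CPM and HAPLN1, a hyaluronan link protein, from 0.530 to 5.70 CPM. Of 33 collagen processing genes 15 rose (45.5%) and 12 fell (36.4%). The prolyl hydroxylase subunit P4HB rose from 694 to 1323 CPM and LOXL1, a crosslinker linked to elastin, fell from 33.0 to 16.8 CPM.

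Hedgehog pathway genes had the highest share of lowered members, 16 of 19 tested, with a median log2 fold change of -0.54, while 2 genes known as its transcriptional targets rose. GAS1, CDON and BOC, coreceptors that help the ligand bind, fell: GAS1 from 194, 209.6 and 201 to 51.0, 51.0 and 54.8 CPM (log2 -1.95, SE 0.036) and CDON from 24.3, 23.1 and 24.9 to 8.26, 7.16 and 7.49 CPM (log2 -1.66). SCUBE1, which belongs to a family of secreted ligand-release factors, fell from 26.9 to 8.63 CPM, and GLI3, a transcription factor that mostly represses, fell by 0.55 on the log2 scale. The 2 that rose were GLI1 and HHIP, GLI1 from 1.69, 2.05 and 1.87 to 4.84, 5.58 and 5.97 CPM (log2 1.54) and HHIP from 2.86, 2.90 and 2.54 to 6.76, 7.94 and 6.69 CPM (log2 1.37). PTCH1, a receptor and also a known target, fell by 0.25 on the log2 scale. Primary cilium genes, on whose organelle the pathway depends, were lower in 26 of 53 cases and higher in 7, none by 2-fold (median -0.12).

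Actin, focal adhesion and contractile genes fell more often than they rose. Of 69 tested 38 fell and 23 rose (median log2 -0.14). The actin-binding proteins CALD1 and TPM1, both among the 15 genes with the largest loss in CPM, fell from 2979.5, 3055 and 2902 to 1099, 1049 and 1089 CPM (log2 -1.47) and from 3004, 2979 and 2969 to 1348, 1373 and 1396 CPM (log2 -1.12). LMOD1, an actin nucleator of smooth muscle, fell from 111, 114 and 114 to 26.6, 24.9 and 27.1 CPM (log2 -2.11). The summed smooth muscle and pericyte markers ranged from 3098 to 3304 CPM with GFP and from 1312 to 1427 CPM with DUX4, and their part in the result was not tested. DIAPH3, a formin of dividing cells, rose from 8.66, 8.35 and 9.24 to 53.5, 54.8 and 50.2 CPM (log2 2.59). Of 32 TGF-beta and SMAD feedback genes 20 fell and 8 rose (median log2 -0.17), with TGFBI among those that rose and CTGF, TGFBR3 and LDLRAD4 among those that fell. The summed level of this list went up all the same, from 4393, 4258.5 and 4366 CPM with GFP to 7132, 7508 and 7440.5 CPM with DUX4. Of 27 dystrophin complex and muscle membrane genes 12 fell (44.4%) and 5 rose (18.5%), with a median of -0.22. DMD, the dystrophin gene, rose from 15.4 to 22.0 CPM while the sarcoglycan SGCB fell from 67.9 to 36.5 CPM.

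Several strongly lowered genes belonged to none of these lists. ASPN, a small proteoglycan that holds back TGF-beta, fell from 231, 248 and 225 to 17.3, 16.5 and 19.1 CPM (log2 -3.74), and ISM1, a secreted inhibitor of vessel growth, from 127, 133 and 124 to 11, 9.06 and 10.9 CPM (log2 -3.64). RNASE4, a secreted ribonuclease, fell from 26.3 to 2.26 CPM. DUOX2, which makes hydrogen peroxide, fell from 3.89 to 0.360 CPM and its maturation factor DUOXA2 from 1.63 to 0.154 CPM. SFRP2, a secreted Wnt modulator, had one of the largest losses in CPM, from 7014, 6880.0 and 7018 to 1831, 1899 and 1975 CPM (log2 -1.87). The 15 genes with the largest loss in CPM held 12.3%, 12.1% and 12.4% of counts in the GFP libraries and 7.53%, 7.65% and 8.08% in the DUX4 libraries.

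Outside the lists, further named genes at the raised end were near zero with GFP. Those named outside the naming rule of the methods, chosen after their values were seen, are BOC, C1R, C3, CHGB, NPY, PENK, PTCH1, SLC16A3 and the genes given by name as the few exceptions of a list. ARC, a synaptic gene of neuronal activity, went from 0.196, 0.103 and 0.128 to 9.47, 8.12 and 7.77 CPM (log2 5.85). NPTX2, a neuronal pentraxin, had 3 counts over the GFP libraries and 392 over the DUX4 libraries, a ratio of 126 (95% counting interval 42.8 to 613). OLR1, a receptor of oxidised lipoprotein, rose from 0.0245, 0.0257 and 0.0513 to 3.91, 4.13 and 3.95 CPM, and the chemokine CCL20 from 0.0734, 0.0257 and 0.103 to 3.66, 3.19 and 4.08 CPM. KRT24, a keratin, varied between DUX4 libraries, at 3.42, 4.75 and 6.97 CPM in the DUX4 libraries against 0.0734, 0.0257 and 0.0513 CPM with GFP (log2 6.55, SE 0.60, edgeR adjusted p = 3.1e-05).

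By type of gene, the response was spread over the genome. Among 14565 tested protein-coding genes 10.4% rose and 5.14% fell at least 2-fold, and among 1260 long noncoding RNAs 11.3% and 6.43%. Chromosome 8 had the highest share of genes raised at least 2-fold, 95 of 579 (16.4%), followed by chromosome 16 with 49 of 313 (15.7%), and chromosome 10 the highest share lowered, 38 of 368 (10.3%). These shares are descriptions and were not tested. Protein-coding genes raised at least 2-fold had a median span of 24.9 kb in the annotation, those lowered 34.4 kb and the others 26.7 kb.

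The 3 DUX4 libraries lay close together at the most raised genes, with library 1 lowest by median. Over the 30 named genes raised most, the highest value was in library 1 for 7 genes, in library 2 for 9 and in library 3 for 14, with median levels of 0.964, 1.02 and 1.04 relative to the group mean. Over the 30 named genes lowered most, these medians were 0.939, 0.977 and 1.07. Library pairs of a group still differed beyond sampling noise, the chi-square divided by its degrees of freedom being 6.83 to 17.9 among DUX4 and 2.62 to 3.67 among GFP libraries, so no 2 libraries were copies of each other. DUX4 library 1 differed more from libraries 2 and 3 (9.86 and 17.9) than those did from each other (6.83).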

How the data were processed

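RNA of pig myoblasts was sequenced with a stranded mRNA kit, per the labels' protocols. The authors deposited whole-number read counts for each gene, not normalised. Per the submitters' processing notes the authors used CASAVA 1.9, Trim Galore and featureCounts on Sscrofa11.1, and the column headers name Subread. Not given in the sources used here are the annotation release, the strand setting and the other versions.

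Here the counts of all 9 libraries were fitted in one model by group with edgeR 4.0.16 (R 4.3.3; robust quasi-likelihood F test, two-sided, TMM factors, filterByExpr), and the DUX4 minus GFP contrast was adjusted by Benjamini-Hochberg at 0.05. The 1.5-fold test is glmTreat in the same fit. Intervals of count ratios are 95% counting intervals. Alternatives used DESeq2 1.42.0, limma 3.58.1 (voom), other scalings, filters and subsets of libraries. The scripts were tested on simulated data. Gene names and coordinates come from the RefSeq table of Sscrofa11.1.

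Members and lists were chosen with earlier results of these data known. Named genes passed the test, had a symbol of their own, a level of 1 CPM or more in either group and no overlap between groups. They are the 30 largest log2 fold changes each way, the 15 largest CPM differences each way, up to 4 members per list and direction with the smallest p, and all cell type markers. Same-numbered libraries did not deviate together (correlations of 0.0167, -0.113 and 0.0887 over 9519 genes), so they were not treated as pairs. A few genes and 1 gene list are not reported here.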

Additional observations from a re-analysis of the deposited data

How the results depend on the processing

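Under other scalings, filters, tools and sets of libraries, the number of genes that differed from GFP was 9574 to 10585, against 10341, and the number changed at least 2-fold was 1867 to 2932, against 2508, each within 1.5 times of the reported count. The lower end came from a filter at 1 CPM in 3 libraries and the upper end from no filter. Counted only over genes of at least 1 CPM in the DUX4 or GFP group, an alternative added after seeing the data, 1600 genes changed at least 2-fold and 997 rose at least 2-fold, against 1668, and of all changed genes 4478 were higher and 4753 lower; this setting counts fewer genes by construction. DESeq2 called 9619 genes (5297 higher, 4322 lower) and limma-voom 10331 (5252 higher, 5079 lower). Leaving out 1 library at a time gave 9791 to 10063 changed genes and 2536 to 2586 changed at least 2-fold. With the replicate number as a block, 10272 genes changed, and the numbers did not pair the libraries. Of 193 genes named in the text and tested, none changed direction under any alternative, and 4 lost their call in some: CLDN7 with DESeq2 (adjusted p = 0.056), PENK in 7 alternatives (log2 -0.25 to -0.23, adjusted p of 0.054 to 0.16), ATG16L2 in 2 (adjusted p of 0.051 and 0.060) and ATG101 without the first GFP library (adjusted p = 0.077). Classes by protein pattern and a promoter motif search, both listed at the start, were not run, as no sequences were used here. Values near the floor of 3 counts over a group carry the least precision, and with 3 libraries a group no outlying library could be tested for.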
